A study of Mus musculus with 6 samples.

Results

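The interferon gamma induced GTPases described here are 10 mouse genes, chosen by symbol among the 32285 genes of the deposited feature tables. They are Iigp1, Irgm1, Irgm2, Igtp, Tgtp1 and Tgtp2 of the immunity related GTPase family and Gbp2, Gbp3, Gbp7 and Gbp9 of the guanylate binding protein family. All 10 were found. They were measured by droplet single-cell RNA sequencing in hematopoietic stem and progenitor cells (HSPCs) of C57BL/6J CD45.1 female mice aged 8 to 12 weeks. The mice were not conditioned and received either PBS (3 libraries) or C1498 cells (3 libraries), a CD45.2 murine acute myeloid leukemia (AML) line, and all were sacrificed at day 21. CD45.1+ Lin- cKit+ Sca1+ cells were sorted, a gate for cells of the host and not of the leukemia. The purity of the sorted cells was not tested here. The model is 1 leukemia line in 1 strain. Nothing in the labels says that the libraries of a group came from separate groups of mice. The p-values therefore measure at most the spread between these libraries, which may be technical.

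In mice these GTPases are a hallmark of the response to interferon gamma. The cytokine binds the receptor made of Ifngr1 and Ifngr2, the kinases Jak1 and Jak2 are activated, and the transcription factors that follow bind promoter elements called GAS (gamma activated site) and ISRE (interferon stimulated response element), the latter also a target of Irf1. The guanylate binding proteins and the effector GTPases Iigp1, Tgtp1 and Tgtp2 collect on the vacuoles of intracellular pathogens, while Irgm1, Irgm2 and Igtp protect the cell's own membranes from them. In the bone marrow, interferon gamma drives stem cells out of quiescence, and mice without Irgm1 are known for a stem cell defect.

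Promoter windows from RefSeq (GRCm38.p6, 250 bases before to 50 after the start site, 300 in all) were matched for 8 of the 10 members, and not for Iigp1 and Gbp9. They are shown because the interferon elements are what the promoters share. These genes have 9 windows, since Gbp3 has 2 start sites. Searched on both strands, 8 of the 9 windows held the ISRE core GAAANNGAAA and 5 the GAS core TTCNNNGAA, and the second window of Gbp3 held neither. Of all 32851 windows of the same length, 3.44% held the ISRE core, 8.30% the GAS core and 0.454% both. In the stretches below, on the strand of the gene and 5′ to 3′, capitals mark the cores and lower case up to 10 bases on either side.
Igtp (chr11:58199501-58199541, plus strand): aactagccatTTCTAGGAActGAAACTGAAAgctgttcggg
Irgm2 (chr11:58214892-58214932, plus strand): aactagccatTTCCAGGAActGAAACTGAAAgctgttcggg
Tgtp1 (chr11:48992304-48992344, minus strand): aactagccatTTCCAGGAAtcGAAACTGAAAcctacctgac
Tgtp2 (chr11:49064263-49064303, minus strand): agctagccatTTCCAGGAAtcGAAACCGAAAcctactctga
Irgm1 (chr11:48871425-48871460, minus strand): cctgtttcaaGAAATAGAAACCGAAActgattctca
Gbp7 (chr3:142530220-142530302, plus strand): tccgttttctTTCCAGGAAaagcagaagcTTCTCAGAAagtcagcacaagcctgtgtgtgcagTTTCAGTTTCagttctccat
Gbp3 (chr3:142559989-142560024, plus strand): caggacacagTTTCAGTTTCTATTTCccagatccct
Gbp2 (chr3:142620594-142620623, plus strand): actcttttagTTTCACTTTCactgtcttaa

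In Igtp, Irgm2, Tgtp1 and Tgtp2 the GAS core stood 2 bases upstream of the ISRE core, whereas in Gbp7 the 2 GAS cores ended 44 and 25 bases before it. The ISRE core lay on the strand of the gene in the 5 immunity related GTPase promoters and on the other strand in Gbp7, Gbp3 and Gbp2. Gbp3 and Irgm1 each held a pair of overlapping ISRE cores. RefSeq start sites, used here, are not always the gene ends of GENCODE, as for Irgm2. A match is a description of these letters and was not tested as a binding site. As the plot of motif positions shows, all matches lay upstream of and close to the start site.

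**Figure D1:**
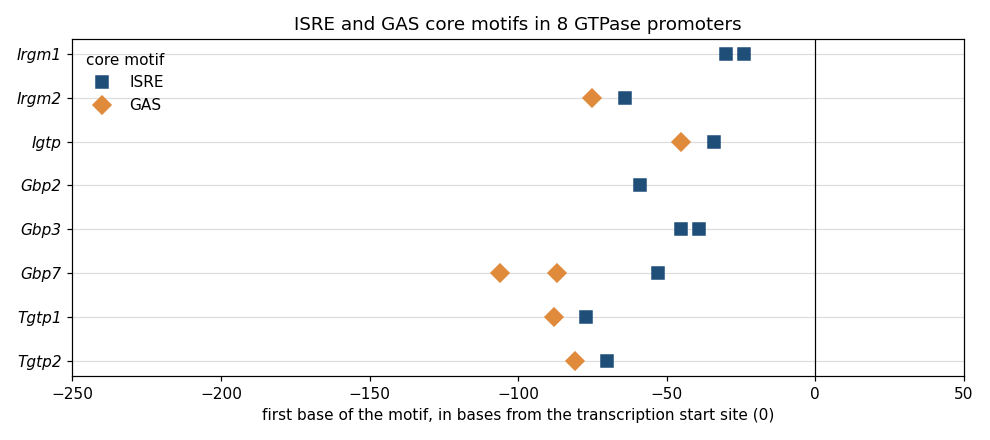
First base of each ISRE core (squares) and GAS core (diamonds) in 8 members, in bases from the transcription start site at 0, within the window of 250 bases before and 50 after it. All matches lie between -106 and -24, with a GAS core in 5 genes and an ISRE core in 8.

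In GENCODE vM21 on GRCm38, all 10 members are protein coding genes, 8 of them on chromosomes 3 and 11. Gbp7, Gbp3 and Gbp2 lie in order on chromosome 3 between 142530342 and 142638008, and Gbp9 lies on chromosome 5 from 105077630 to 105139539. Chromosome 11 holds Irgm1 (48861968 to 48871683), Tgtp1 (48985327 to 48994172), Tgtp2 (49057194 to 49064206), Igtp (58199556 to 58207591) and Irgm2 (58199618 to 58222782). The last 500 bases of Tgtp1 and Tgtp2 transcripts, where this 3′ chemistry reads, share 100% of their 50-base words, so how counts were divided between the pair is uncertain. For the other 8 members this share was 0%. Igtp and Irgm2 overlap on the same strand over 7974 bases, and Gbp9 overlaps Gbp8 and Gbp4 on the same strand. This may also make the split between those genes uncertain. The same may hold for Tgtp1, which overlaps the protein coding Gm12185 over 6900 bases on the same strand. Gbp7 likewise overlaps the pseudogene Gm43802 over 637 bases. These overlaps were taken over whole gene spans and not over exons. Iigp1 lies alone on chromosome 18 from 60376027 to 60392634.

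The authors' table of cells, with 9 clusters (0 to 8), 4 classes (HSC and the multipotent progenitors MPP-2, MPP-3 and MPP-4, from module scores of published signatures) and 3 cell cycle phases, holds 16822 of 48510 barcodes. These kept cells come from 5 libraries, since none of AML 2 is among them, and between 693 and 6838 came from each. Kept UMIs ranged from 10403685 to 32123508 in the PBS libraries and were 1945659 in AML 1 and 27603274 in AML 3. AML 1 stood apart: its HSC class was 23 cells with 61292 UMIs in all, 14.7% of its kept cells were in G1 against 49.0% to 58.2% in the other libraries, and a gene at 0 there may still reach 48.9 CPM (3 UMIs). Between libraries, 36 barcodes were shared. Levels are in CPM, the UMIs of a gene scaled to one fixed UMI total per sum of cells, and in such sums fewer cells of a type and less RNA per cell cannot be told apart. Of the 9 LSK and stem cell markers, 9 were detected in the HSC class of every PBS library and of AML 3, and 8 in AML 1.

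Across all kept cells Irgm1 was the most abundant member and Gbp9 the least. Irgm1 was at 45.0, 53.4 and 30.7 CPM in PBS 1, 2 and 3 and at 46.3 and 45.1 in AML 1 and AML 3. Iigp1 was at 24.5, 33.9 and 18.8 CPM in PBS and at 23.1 and 42.7 in AML. Gbp7 was at 32.6, 23.7 and 20.7 CPM in PBS and at 27.8 and 31.6 in AML, so that its rank and that of Iigp1 exchanged between libraries. Gbp9 did not pass 2.02 CPM in any library. Tgtp2, Igtp, Gbp2, Irgm2, Gbp3 and Tgtp1 lay between 3.08 and 21.2 CPM. Of these, Tgtp2 (9.77 to 21.2) stayed above Tgtp1 (5.23 to 9.23), though the division of reads within that pair is uncertain. These values count 3′ UMIs and are not per length, so they order UMIs and not proteins.

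**Figure D2:**
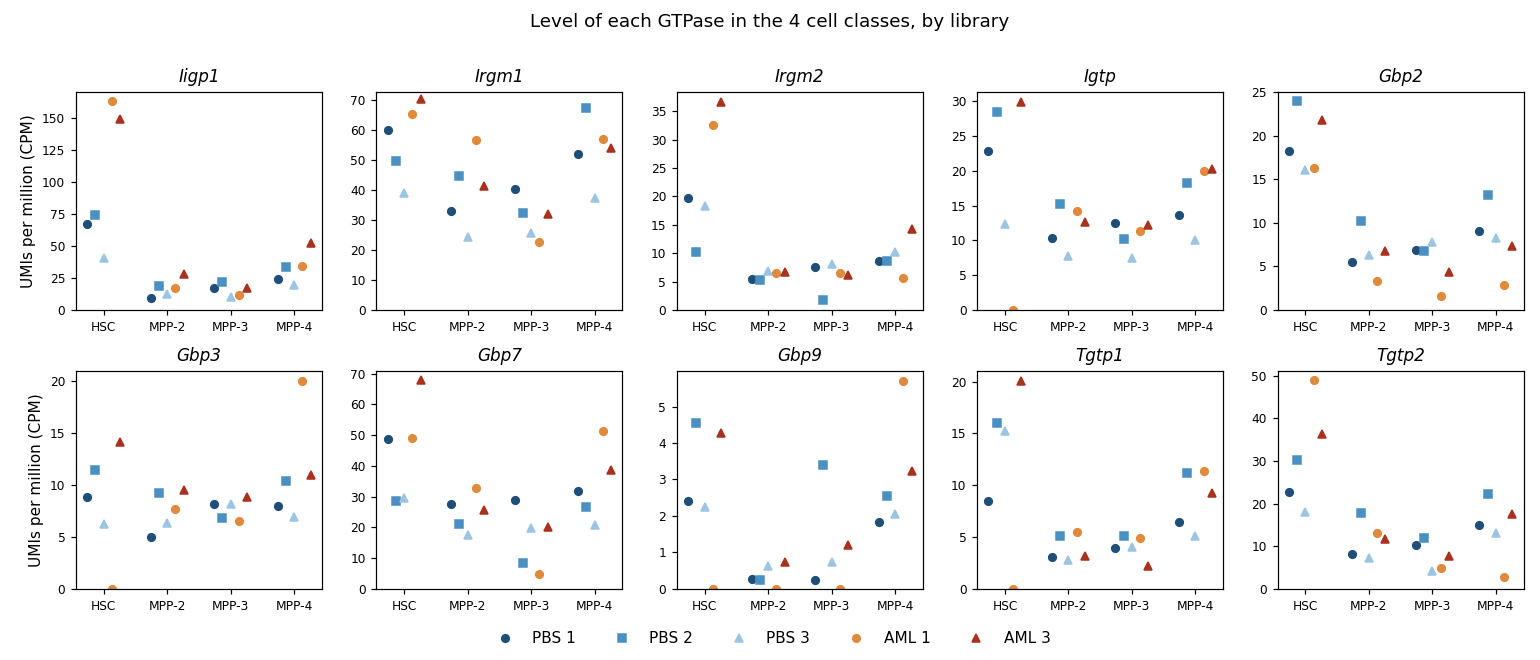
Level of each member (y axis, CPM of summed UMIs, a separate linear scale from 0 for each gene) in the 4 cell classes (x axis), with 1 point per library. In PBS libraries 8 members are highest in the HSC class in all 3 libraries, while Irgm1 and Gbp3 are not, with no such count made over all genes. The 4 points at 0 in HSC belong to AML 1.

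The first comparison asked how the members differ between stem cells and multipotent progenitors without leukemia, in the 3 PBS libraries. The level per UMI was highest in the HSC class of each: the 10 members together reached 279, 278 and 197 CPM in HSC of PBS 1, 2 and 3, and 171, 214 and 134 in MPP-4. The summed level was 136, 109 and 95.8 CPM in MPP-3 and 108, 147 and 92.7 in MPP-2. The HSC class was therefore at 1.30 to 1.64 times the summed level of MPP-4 and 1.88 to 2.58 times that of MPP-2. Of the single members, 8 were highest in HSC in all 3 PBS libraries, and 4 in all 5 libraries. No such count was made over all genes, so the share that this order has among them is not known.

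Iigp1, an effector GTPase, showed a large and steady difference. It was at 67.1, 74.7 and 40.3 CPM in HSC of PBS 1, 2 and 3, a mean of 60.7 ± 18.1 (SD, n = 3), against 25.9 ± 7.12 in MPP-4, 16.5 ± 6.09 in MPP-3 and 13.4 ± 4.66 in MPP-2. The lowest HSC library was above the highest library of each other class. The classes were themselves assigned from expression in these cells, which limits the p-values between them. By edgeR with a term per library, Iigp1 was 4.08-fold lower in MPP-2 than in HSC (log2 fold change -2.03 ± 0.148, SE), 3.01-fold lower in MPP-3 (-1.59 ± 0.196) and 2.32-fold lower in MPP-4 (-1.21 ± 0.134), with adjusted p of 5.24e-11, 7.37e-07 and 1.65e-07. After each cell was thinned to 2000 UMIs, 9.12%, 13.5% and 7.95% of HSC cells in PBS 1, 2 and 3 held an Iigp1 UMI, against 1.62%, 2.65% and 2.22% of MPP-2 cells. In cluster 6, whose cells were rich in B and plasma cell markers, median depths were 7943 to 18231 UMIs in PBS, above the 3160 to 7408 of HSC cells, and the thinned share was 0% (55, 12 and 40 cells in PBS 1, 2 and 3, which allow up to 5.45%, 25.0% and 7.50%).

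The remaining effectors fell in each progenitor class, with separate ranges in MPP-2. Tgtp1 was at 8.44, 15.96 and 15.2 CPM in HSC and at 3.12, 5.10 and 2.80 in MPP-2, with no overlap, a log2 fold change of -1.63 ± 0.226. Tgtp2 was at 22.7, 30.2 and 18.04 CPM in HSC and at 8.22, 17.7 and 7.26 in MPP-2 (95% interval of the log2 fold change -1.32 to -0.69), the MPP-2 range staying below the HSC range by little. Since the pair cannot be told apart in 3′ reads, their sum is given as well. It was 31.2, 46.2 and 33.3 CPM in HSC and 11.3, 22.8 and 10.1 in MPP-2. In MPP-4, where the ranges overlapped those of HSC, Tgtp1 was at 6.42, 11.2 and 5.10 CPM (-0.76 ± 0.203) and Tgtp2 at 15.1, 22.3 and 13.1 (-0.46 ± 0.142). In MPP-3 the log2 fold changes were -1.14 ± 0.300 and -1.05 ± 0.216.

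The regulatory GTPases were not alike. Irgm2 was at 19.7, 10.3 and 18.3 CPM in HSC and at 5.54, 5.34 and 6.95 in MPP-2, a log2 fold change of -1.30 ± 0.176. Igtp was at 22.9, 28.5 and 12.4 CPM in HSC and at 10.4, 15.3 and 7.78 in MPP-2 (-0.73 ± 0.136), so that each library fell although the class ranges overlapped. Irgm1 was at 59.9, 49.6 and 38.9 CPM in HSC and fell in MPP-2 (-0.42 ± 0.103, adjusted p 0.00155), but was at 52.0, 67.4 and 37.3 in MPP-4, with a log2 fold change of 0.04 ± 0.0984 and a 95% interval of -0.16 to 0.25. For MPP-3 and MPP-4, Irgm2 was at -0.97 and -0.86 and Igtp at -0.57 and -0.55, all called, and Irgm1 in MPP-3 at -0.21 (adjusted p 0.232).

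Among the guanylate binding proteins, Gbp2 was at 18.3, 23.9 and 16.1 CPM in HSC and at 5.54, 10.2 and 6.33 in MPP-2, a log2 fold change of -1.24 ± 0.154 with separate ranges. Gbp7 fell by 0.51 ± 0.110 (SE) on the log2 scale in MPP-2, from a higher HSC level of 48.6, 28.5 and 29.6 CPM. Gbp9 fell by 2.51 ± 0.553 in MPP-2, but on 3, 1 and 6 UMIs there. Gbp2 also fell in MPP-3 and MPP-4 (by 0.96 and 0.89), as did Gbp7 (by 0.42 and 0.43), whereas Gbp9 did not pass there (-1.55 and -0.37). Gbp3 was at 8.84, 11.4 and 6.20 CPM in HSC and passed in no class, its log2 fold change being -0.19 for MPP-2, 0.32 for MPP-3 and -0.00 for MPP-4.

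In all, 9 members were lower in MPP-2 than in HSC by edgeR at an adjusted p under 0.05, 7 in MPP-3 and 7 in MPP-4, and 0 were higher. Of all 11793 genes tested, 25.5% were lower for MPP-2, 15.7% for MPP-3 and 13.4% for MPP-4, while 26.1%, 20.2% and 14.7% were higher. The median log2 fold change of the members was -1.12, -0.96 and -0.50, against -0.04, -0.01 and 0.01 over all genes. Scaling by library size alone moved these medians of all genes to -0.27, -0.34 and -0.05, and 9, 9 and 7 members were then lower. Without PBS 1 the counts were 7, 3 and 3, without PBS 3 they were 9, 5 and 4, and without PBS 2 they were 9, 7 and 7. Over all genes, 6080, 4227 and 3314 were called in either direction in the main fits. Without PBS 1 these calls were 4563, 3044 and 2131, without PBS 3 4548, 2602 and 1987, and without PBS 2 5882, 4188 and 3241. DESeq2 called 9, 5 and 6 lower. Markers of other cells moved with the classes in PBS. The 10 neutrophil markers summed to 411 to 985 CPM in MPP-3 against 5.70 to 8.24 in HSC. The 12 T and NK cell markers summed to 284 to 419 CPM in MPP-3 against 64.4 to 114 in HSC. The 8 B and plasma cell markers summed to 15134 to 53797 CPM in MPP-3 against 70.7 to 125 in HSC. The 8 erythroid markers summed to 176 to 2067 CPM in HSC against 50.7 to 85.9 in MPP-4. With clusters 6, 7 and 8 left out, 8, 7 and 7 of 9 tested members were lower. Cluster 6 held most of the B and plasma cell marker UMIs in each library, but in PBS 2 and PBS 3 most erythroid marker UMIs lay outside these clusters (414 of 1249 in cluster 0 of PBS 2 and 3468 of 7740 in cluster 0 of PBS 3), and their part in the class values was not tested.

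**Figure D3:**
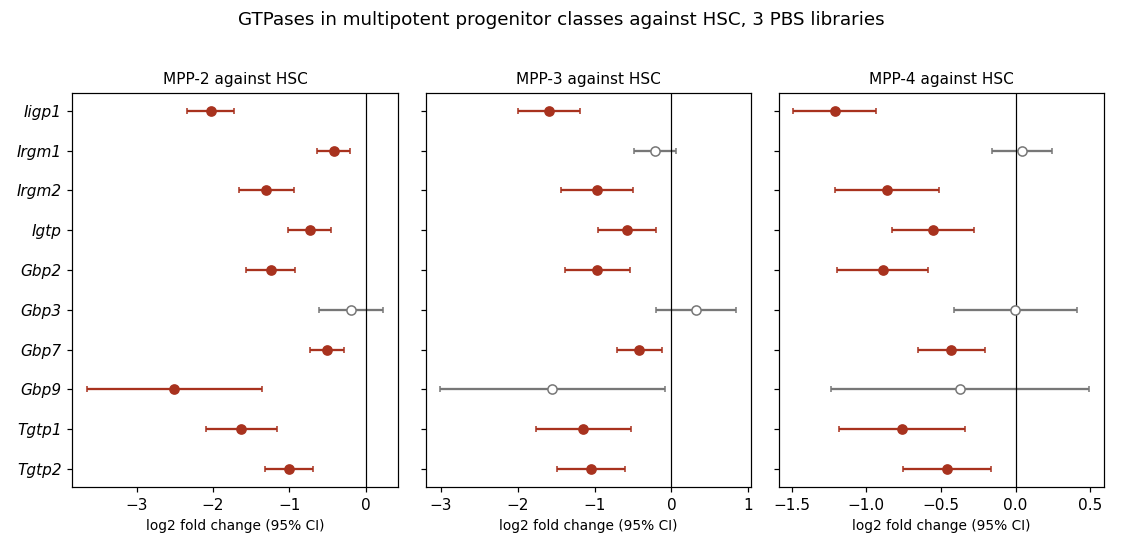
Log2 fold change of each member in the progenitor classes against HSC in the 3 PBS libraries (x axis, edgeR, bars are 95% confidence intervals). Filled points have an adjusted p under 0.05, and all 23 of them lie below 0. Irgm1 and Gbp3 lie nearest to 0.

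The phases ran along with the classes. Summed over the 10 members, cells in G1 reached 215, 249 and 160 CPM in PBS 1, 2 and 3 and 232 and 279 in AML 1 and AML 3, which was 1.47 to 2.03 times the level in S or G2M cells of the same library. In G1, 8 members were highest in all 3 PBS libraries, with no such count made over all genes. Of HSC class cells, 84.1% to 87.9% were in G1 in the PBS libraries and AML 3, and 56.5% in AML 1. Within G1 cells alone the HSC class was still highest in every library, at 302, 292 and 217 CPM in PBS and at 527 and 491 in AML. The MPP-4 class was at 194, 242, 147, 310 and 264. The 527 CPM of AML 1 came from 13 cells, below the minimum of 20 used in the fits. With G1 cells alone, edgeR called 2 members lower for MPP-2, 2 for MPP-3 and 6 for MPP-4, with medians of -1.20, -0.70 and -0.48. Of 10696 genes, 348, 1601 and 2081 were then called in either direction, against 6080, 4227 and 3314 of 11793 with all phases. PBS 2 had fewer than 20 such cells in MPP-2 and did not enter there.

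Between clusters the members ranged more widely, given as levels with no test, since every gene was open to the clustering. Clusters 0 and 2 held 152 to 292 and 149 to 276 CPM of the 10 members, cluster 4 held 69.0 to 96.7, and cluster 3 held 77.3 to 187. Cluster 6 was lowest in 4 of 5 libraries, at 4.41 to 62.4 CPM, and cluster 7 was at 0 in AML 1 on 2 cells. Cluster 8 reached 678 CPM in PBS 2, on 5 cells, and 229 to 272 in the other libraries. Its 12 T and NK cell markers summed to 1187 to 5295 CPM, against 64.4 to 174 in the HSC class, and their part in the level of cluster 8 was not tested. Iigp1 alone did not lead there in every library, being at 8.49, 271 and 54.9 CPM in PBS 1, 2 and 3 and at 0 and 21.9 in AML 1 and AML 3.

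**Figure D4:**
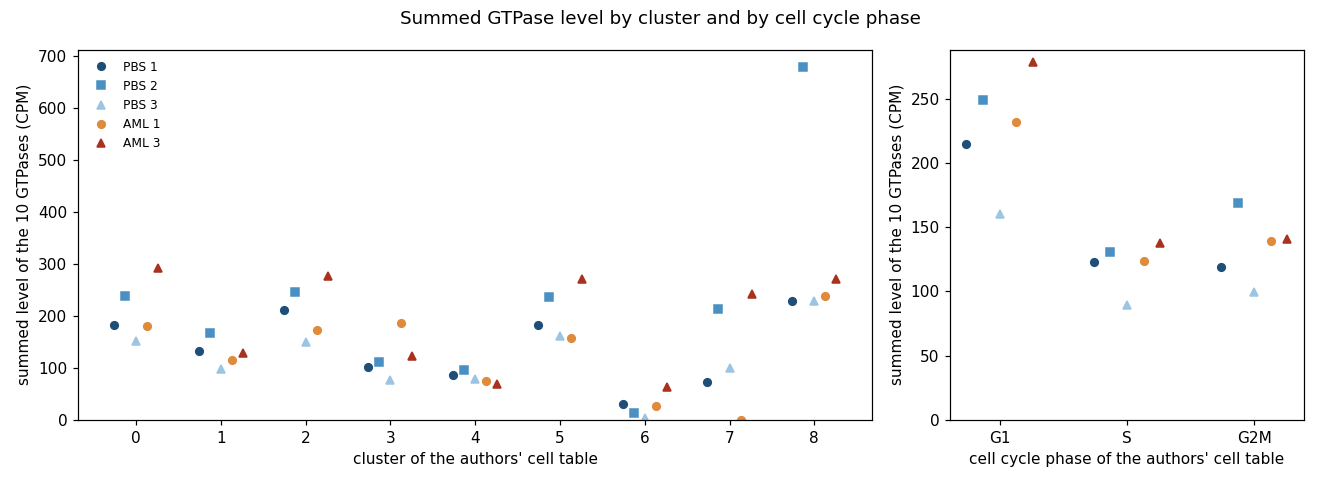
Summed level of the 10 members in CPM (y axis, linear from 0) by cluster (left) and by cell cycle phase (right) of the authors' table, 1 point per library. Clusters 0, 2, 5 and 8 are high, clusters 4 and 6 low, and G1 lies above S and G2M in all 5 libraries. Clusters 5 to 8 hold few cells.

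The share of cells with a member UMI depended on depth. After thinning, 22.1% to 31.3% of PBS cells and 20.8% and 29.6% of AML cells held at least 1 UMI of any of the 10, and only 0.433% to 2.25% held UMIs of 3 or more. In the HSC class the share with any member was 36.3%, 39.9% and 31.3% in PBS and 39.1% and 48.9% in AML. In cluster 6 it was 9.09%, 0% and 2.50% in PBS and 0% and 13.6% in AML, where the 0 of 12 cells in PBS 2 and the 0 of 9 in AML 1 allow up to 25.0% and 33.3%. Unthinned, 51.0%, 73.5% and 46.1% of HSC class cells in PBS and 47.8% and 70.5% in AML held a member UMI, at median depths of 3160, 7408, 3307, 2303 and 3814 UMIs.

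The second comparison asked whether the members differ between AML and PBS mice. Over all kept cells, none was called. By edgeR 0 of 10 passed, where 0.16% of 14364 genes did, and 0 passed with DESeq2 or limma-voom, which also had 0 at an unadjusted p under 0.05. At an unadjusted p under 0.05 there was 1 member (10.5% of all genes), Gbp2, at 8.97, 13.5 and 8.62 CPM in PBS and 3.08 and 7.54 in AML, both AML libraries below every PBS library, as for 17.4% of all genes on the TMM scale. Its log2 fold change was -0.73 ± 0.323 (adjusted p 0.452), and AML 1 contributed 6 UMIs. In all, 7 of 10 were fitted higher in AML (47% of all genes), with a median of 0.15 over the members and -0.03 over all genes. The fitted values of the other 9 ran from -0.22 (Tgtp2) and -0.12 (Tgtp1) through Irgm1 (0.068), Irgm2 (0.15), Igtp (0.16), Gbp7 (0.21), Gbp9 (0.22) and Gbp3 (0.31) to Iigp1 (0.40). Without AML 3, 4 of 10 were fitted higher and the median was -0.12.

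In the HSC class, Iigp1 was higher in AML. It was at 67.1, 74.7 and 40.3 CPM in PBS and at 163 and 149 in AML, where AML 1 gave 10 UMIs and AML 3 gave 350. Each AML value exceeded the highest PBS value. The log2 fold change was 1.17 ± 0.267 (95% interval 0.64 to 1.69), 2.24-fold, with an adjusted p of 0.0100 in edgeR. Iigp1 was the only member of 10 to pass, where 0.178% of 10668 genes did. In this fit the variance of each gene was drawn fully to the trend over all genes. Its p-value therefore does not measure the spread of Iigp1 itself between libraries. With AML 3 or AML 1 left out, the log2 fold change was 1.03 and 1.19 and the adjusted p 0.650 and 0.249, in fits where the lone AML library is assumed to vary like the PBS libraries. Without PBS 1 or PBS 3 it was 0.136 and 0.288, and without PBS 2 it was 0.00244. DESeq2 gave a log2 fold change of 1.14 with an adjusted p of 1.00 (unadjusted 0.00491), and the fit with replicate number as a block an adjusted p of 0.0888.

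The other 9 members did not pass in the HSC class. Irgm2 was at 19.7, 10.3 and 18.3 CPM in PBS and at 32.6 (2 UMIs) and 36.7 in AML, a log2 fold change of 0.97 ± 0.320 (adjusted p 0.474). Tgtp2 was at 22.7, 30.2 and 18.04 CPM in PBS and at 48.9 (3 UMIs) and 36.3 in AML (0.55 ± 0.310, adjusted p 0.992). For Iigp1, Irgm2 and Tgtp2 both AML libraries lay above all PBS libraries on the TMM scale, which was so for 11% of all genes tested. At an unadjusted p under 0.05 there were 3 members (4.16% of all genes): Iigp1, Irgm2 and Gbp7, the last at 0.72 ± 0.276 (adjusted p 0.913). All 10 were fitted higher in AML (46.9% of all genes), and the median was 0.47 against -0.03 over all genes, the fitted values of Gbp3, Tgtp1, Gbp9, Irgm1 and Igtp being 0.51, 0.42, 0.41, 0.35 and 0.30. In the plain mean of the 2 AML libraries, however, Igtp (14.9 CPM against 21.3 in PBS), Tgtp1 (10.0 against 13.2), Gbp3 (7.05 against 8.82), Gbp9 (2.14 against 3.08) and Gbp2 (19.0 against 19.4) were below PBS.

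That count of 10 rests on AML 3. With AML 1 as the lone AML library, 4 of 10 were fitted higher. Of the other 6, Igtp, Gbp3, Gbp9 and Tgtp1 had no UMI in its 61292, and Gbp2 (-0.63) and Irgm1 (-0.010) had some. Gbp2 differed least, at 18.3, 23.9 and 16.1 CPM in PBS and at 16.3 (1 UMI) and 21.8 in AML, with a log2 fold change of 0.04 ± 0.352. Scaling by library size alone moved the median of all genes from -0.03 to 0.12, and Iigp1 stayed called (1.34, adjusted p 0.00352). In the HSC class the 8 erythroid markers summed to 176 to 2067 CPM in PBS and 48.9 to 103 in AML, and the 12 T and NK cell markers to 64.4 to 114 and 114 to 174. The monocyte markers summed to 135 to 224 and 81.6 to 127 CPM, and the dendritic cell markers to 261 to 311 and 410 to 441. The LSK and stem cell markers summed to 1323 to 1445 and 1675 to 2007 CPM. Only 2 of the 6 dendritic cell markers were detected in each AML library here. Over all kept cells that list was led by Bst2 (mean 270 CPM) and Flt3 (199), the latter also in the LSK list. The T and NK list was led by Nkg7 (169) and Ccl5 (48.1). The part of these lists in the result was not tested. With clusters 6, 7 and 8 left out Iigp1 was at 1.17 (adjusted p 0.0121).

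In the progenitor classes edgeR called 0 members, of 9 tested for MPP-2, 9 for MPP-3 and 10 for MPP-4, where 0.0399%, 0.0486% and 0.0325% of all genes passed. The counts at an unadjusted p under 0.05 were 1, 0 and 2, against 7.56%, 7.39% and 5.93% of all genes, and DESeq2 called 0 in each, with 0, 0 and 1 unadjusted, although 7 of the 9 in MPP-2 had no adjusted p there. Iigp1 was at 24.0, 33.7 and 19.8 CPM in MPP-4 of PBS and 34.2 and 52.5 in AML, where the groups did not overlap in plain CPM but did on the TMM scale (32.3 in AML 1 and 35.5 in PBS 2), with a log2 fold change of 0.82 ± 0.259 (adjusted p 0.528). In MPP-2 it was 0.84 ± 0.317 (adjusted p 0.539), and in MPP-3 -0.07 ± 0.380, with an interval of -0.87 to 0.72.

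Fitted higher were 8 of 9 members in MPP-2 (47.9% of all genes), 1 of 9 in MPP-3 (48.6%) and 7 of 10 in MPP-4 (47.8%), with medians of 0.22, -0.26 and 0.45. On the log2 scale and in the same order of classes, Irgm1 was at 0.43, -0.31 and -0.0082, Irgm2 at 0.080, -0.26 and 0.41, and Igtp at 0.22, 0.15 and 0.48. Tgtp1 was at 0.010, -0.72 and 0.32, Tgtp2 at 0.14, -0.26 and -0.20, Gbp3 at 0.39, -0.030 and 0.49, and Gbp7 at 0.29, -0.50 and 0.58, while Gbp9 was tested in MPP-4 alone (0.68). The count of 8 in MPP-2 was 5 without PBS 1, and the count of 1 in MPP-3 was 3 without PBS 2 or without AML 1 and 2 without PBS 3. In MPP-3 the summed level was 136, 109 and 95.8 CPM in PBS and 74.7 and 112 in AML. The 8 B and plasma cell markers in that class summed to 15134 to 53797 CPM in PBS and 6372 to 7750 in AML, with a median log2 fold change of -2.03 and 5 of 6 tested at an unadjusted p under 0.05, and their part in the member values was not tested. Gbp2 lay lower in AML in MPP-4, at 9.11, 13.2 and 8.31 CPM in PBS and at 2.85 (1 UMI) and 7.33 in AML (-0.62 ± 0.359, adjusted p 0.883). In MPP-3 it was at 6.89, 6.81 and 7.80 CPM in PBS and at 1.62 (1 UMI) and 4.36 in AML. On the TMM scale its AML libraries lay below all PBS libraries in both classes, as for 12.6% (MPP-3) and 14.5% (MPP-4) of all genes. Gbp7 and Gbp9 lay above all PBS libraries in MPP-4, as for 13.2% of all genes.

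The difference of the AML effect between classes has its own test, with a term per library. By edgeR 0 of 10 members passed (0.872% of 12734 genes), while 4 had an unadjusted p under 0.05 (10.9% of all genes). These were Gbp7 (adjusted p 0.106), Iigp1 (0.121), Irgm2 (0.235) and Irgm1 (0.305). DESeq2 gave no adjusted p for any of the 10, so it could call none, and 3 had an unadjusted p under 0.05. The AML effect in MPP-3 was below that in HSC for 9 of 10, Gbp9 being the other one. On the log2 scale it was lower by 1.44 for Tgtp1, 1.19 for Irgm2, 1.15 for Iigp1 and 1.01 for Gbp7. No such count was made over all genes. Without PBS 2, Gbp7 passed (adjusted p 0.0424). A call of Iigp1 in HSC alone is therefore not shown to be a difference between classes.

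**Figure D5:**
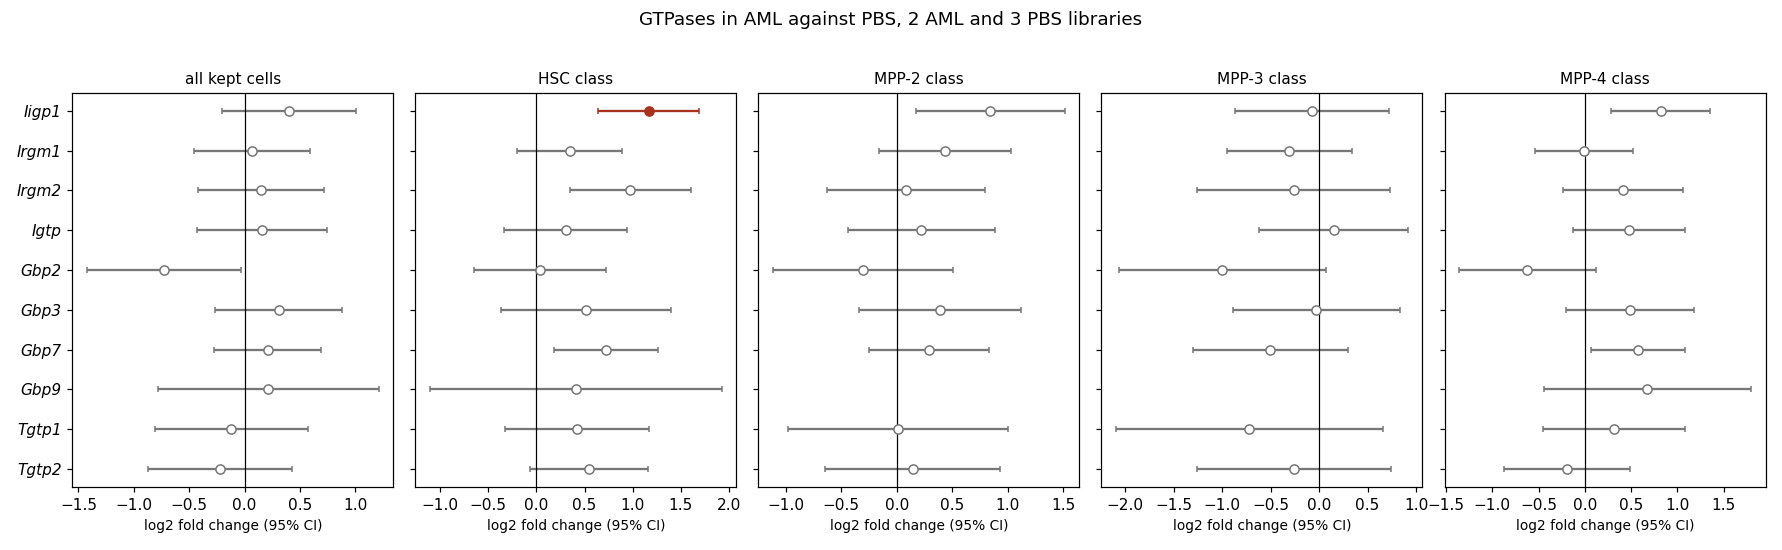
Log2 fold change of each member in AML against PBS (x axis, edgeR, positive is higher in AML, bars are 95% confidence intervals) over all kept cells and in each class, each panel on its own scale. The filled point, Iigp1 in the HSC class at 1.17, is the only one with an adjusted p under 0.05. Gbp9 was not tested in MPP-2 and MPP-3.

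By cluster, only clusters 0 to 4 had at least 20 cells in enough libraries to test, with 10, 9, 10, 8 and 4 members tested. edgeR called 0 of these in each, where 0.0407%, 0.155%, 0.199%, 0.156% and 0.522% of all genes passed, and 1, 0, 1, 1 and 0 had an unadjusted p under 0.05 (8.44%, 7.67%, 5.85%, 4.2% and 5.34% of all genes). Each of these 3 was Iigp1, and DESeq2 called 0 in each cluster, with 0, 0, 1, 1 and 0 unadjusted, although 6 of the 9 in cluster 1 had no adjusted p there. It was at 38.2, 43.3 and 27.8 CPM in cluster 2 of PBS and at 39.7 and 80.0 in AML, a log2 fold change of 0.84 ± 0.275 (adjusted p 0.364). In cluster 3 it was at 6.69, 8.03 and 5.40 CPM in PBS and at 6.02 and 23.7 in AML, so the groups overlapped, with 1.63 ± 0.379 (adjusted p 0.0514), and -0.28 without AML 3. In cluster 0 it was 0.65 ± 0.291 (adjusted p 0.566).

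Of the 19 other interferon inducible GTPases in the list, 15 were in the files and Gbp2b was at 0. In PBS, edgeR called 10 lower and 1 higher in MPP-2 than in HSC of 11 tested, 6 and 0 in MPP-3, and 4 and 1 in MPP-4, where 25.5%, 15.7% and 13.4% of all genes were lower and 26.1%, 20.2% and 14.7% higher. In the order MPP-2, MPP-3, MPP-4, Gm4951 fell by 2.28, 2.07 and 1.42 on the log2 scale, F830016B08Rik by 2.85, 2.62 and 1.87, and Gm4841 by 1.80, 2.33 and 0.96. Gbp5 fell by 1.25, 1.12 and 0.77, whereas Gbp6 and Gbp8 fell in MPP-2 (by 1.57 and 1.53) and MPP-3 (by 1.68 and 1.41) and did not pass in MPP-4. Gbp4 (by 2.21), Gvin1 (by 1.28), 9930111J21Rik2 (by 0.74) and Gm4070 (by 0.51) fell in MPP-2 alone of these tests. Ifi47, the most abundant at a mean of 77.5 CPM over the 5 libraries, went the other way, higher by 0.17 in MPP-2 and by 0.24 in MPP-4. Between AML and PBS none was called over all kept cells (12 tested, 2 at an unadjusted p under 0.05, against 10.5% of all genes) or in HSC (11 tested, 5 unadjusted, against 4.16%), with medians of 0.44 and 0.72. The same held for the progenitor classes, where the unadjusted counts were 4 of 11 (MPP-2), 0 of 7 (MPP-3) and 4 of 11 (MPP-4), against 7.56%, 7.39% and 5.93% of all genes. Gm4951 was at 0.65 ± 0.238 (adjusted p 0.364) over all kept cells and at 0.99 ± 0.274 (0.121) in HSC.

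The ligand, receptor, kinases and feedback genes were also read. Over all kept cells Ifng was read 2 times in PBS 1, 0 times in PBS 2 and PBS 3, 0 times in AML 1 and 3 times in AML 3, so that its level was near the floor in these cells. Of 6 tested pathway genes, 5 were lower in MPP-2 than in HSC, 3 in MPP-3 and 2 in MPP-4, against the same 25.5%, 15.7% and 13.4% of all genes. Jak1, at a mean of 126 CPM, fell by 0.49, 0.41 and 0.33, and the inducible factor Irf1 fell by 0.43 in MPP-2 and by 0.28 in MPP-3. The feedback inhibitor Socs1 fell by 0.69 in MPP-2 and by 0.42 in MPP-3, while Jak2 fell by 0.40 in MPP-2 and by 0.31 in MPP-4. Of the receptor chains, Ifngr1 fell by 0.35 in MPP-2 and Ifngr2 rose by 0.45 in MPP-3. In AML none of 7 was called over all kept cells and 0 had an unadjusted p under 0.05, with Irf1 at -0.30 ± 0.261.

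The 10 conjugation partners are autophagy genes that place these GTPases on membranes. In PBS, 4 were lower and 1, Atg3 (0.26), higher in MPP-2, 3 lower in MPP-3 and 4 lower in MPP-4. Of all genes, 25.5%, 15.7% and 13.4% were lower in these classes and 26.1%, 20.2% and 14.7% higher. With both directions counted together, 5, 3 and 4 of the 10 partners passed, beside 6080, 4227 and 3314 of 11793 genes. Map1lc3b fell by 0.29, 0.21 and 0.25, Gabarapl1 by 0.52, 0.58 and 0.31, Map1lc3a by 0.52 (MPP-2) and 0.50 (MPP-4) without passing in MPP-3, Atg7 by 0.46 in MPP-2 and 0.51 in MPP-3, and Gabarap, at a mean of 245 CPM, by 0.18 in MPP-4 alone of the 3 tests. No partner was called between AML and PBS over all kept cells or in HSC, where 1 of 10 had an unadjusted p under 0.05 in each, against 10.5% and 4.16% of all genes.

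Most pairs of members, but not all, varied together over the 20 sums of a library and a class. The Pearson correlation of log2 CPM between pairs had a median of 0.39, with 32 of 45 above 0. Without the sum of the HSC class in AML 1 it was 0.58, with 45 of 45 above 0 and a range of 0.09 to 0.88. Over these 19 sums Iigp1 was closest to the mean of the other 9 (0.94), then Igtp (0.82) and Tgtp1 (0.81), and Gbp3 was farthest (0.57). The sums share libraries and depth, so these values describe them and carry no p.

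Of 7977 other genes with a mean of at least 10 CPM, those most like the mean of the members over the 20 sums were Glul (r = 0.91), Aff4 (0.90), Serpinb6a (0.90), Arfgef1 (0.89), Cln3 (0.88), Il2rg (0.87), Ltb (0.87), Chd2 (0.87), Zfp512 (0.87) and Aim2 (0.86). Glul makes glutamine, Il2rg is a shared cytokine receptor chain, Ltb a cytokine of the tumor necrosis factor family and Aim2 a sensor of cytosolic DNA. Without the HSC sum of AML 1, 3 of the 10 stayed among the first 10: Ltb at rank 1 (0.96), Cln3 at rank 4 (0.93) and Glul at rank 5 (0.92). The others fell to between rank 11 (Aff4) and rank 53 (Chd2), at 0.87 to 0.90.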

How the data were processed

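LSK cells of 3 PBS and 3 AML libraries were profiled with Chromium GEM V3. Per the labels, the authors made the gene by barcode UMI counts with Cell Ranger 7.0.1 on GRCm38 (mm10), and the notes of the submitters also name Seurat 4.3.0 and R 4.2.2. The deposited cell table gives, as made by the authors, cluster, class and phase of each kept cell and a mitochondrial percent; 18 further columns were not used. No doublet caller was run here.

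Raw counts were summed per library over all kept cells, or per class or cluster with at least 20 cells. edgeR 4.0.16 (quasi-likelihood F test, TMM, filterByExpr, Benjamini-Hochberg, threshold 0.05) was fitted across all genes; class tests in PBS and tests between classes had a term per library. limma 3.58.1 (voom), DESeq2 1.42.0, R 4.3.3 and Python 3.11.15 were also used. Cells were thinned to 2000 UMIs for shares, leaving out 205 shallower cells. Fits were tested on simulated data. An own filter (at least 1000 genes, at most 10% mitochondrial UMIs) was applied to all 6 libraries as an alternative. Limits of shares cover counting error only, while intervals of log2 fold changes come from the edgeR fits.

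The rule was to name all 10 members, which in the cluster tests are given as counts, with the genes of 3 pathway lists that passed and the 10 most correlated genes (log2 CPM, prior count 1, mean of at least 10 CPM). The members and lists were chosen with earlier results of these data known. RefSeq promoter windows and GENCODE vM21 served as annotation, and transcript ends were compared over 500 bases. Proteins were not used here.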

Additional observations from a re-analysis of the deposited data

Results flagged for a closer look

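The library AML 2 has no cell in the authors' table, so only the alternative with the own filter on 6 libraries uses it. Its 17055 barcodes (median 320 UMIs) nevertheless hold member UMIs. The barcodes outside the cell table in PBS 1, 2 and 3 are unlike these, with medians of 3194, 8397 and 3858 UMIs. Summed over its barcodes and those of the other libraries outside the cell table, 6 of 10 members were higher in AML 2 than in any PBS library, which was so for 52.8% of 15360 genes with at least 10 UMIs in these sums. Iigp1 was at 27.6 CPM against at most 16.7 in PBS, Irgm1 at 62.1 against 59.2, and Irgm2 at 9.17 against 8.43. Gbp3 was at 12.8 CPM against 8.45, Gbp7 at 31.9 against 26.7, and Gbp9 at 0.846 (6 UMIs) against 0.408. For Iigp1, Irgm2 and Gbp9 all 3 AML libraries were above all 3 PBS libraries, as for 23.1% of those genes. Both shares of members are near those of all genes. These differences were not tested.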

How the results depend on the processing

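Depth limits the AML side: 1 AML library has 61292 UMIs in its HSC class. Replicate numbers 1 and 3 occur in both groups, but no label says that they mark a shared batch, so the samples share only a number. With the replicate block, 0 members were called in the HSC class, as in each other AML comparison. DESeq2 also called 0 there, and leaving out 1 library each gave 0 to 1. In cluster 3, 1 member was called with library size only and 1 with no filter. The test between classes called 2 with no filter and 0 to 1 with 1 library left out. Against HSC, G1 cells only gave 2 in MPP-2 and 2 in MPP-3, and leaving out 1 library gave 3 to 7 in MPP-3 and 3 to 7 in MPP-4. The G1 alternatives, the own filter on 5 libraries, and the removal of clusters in the HSC class and in the class tests were chosen after seeing the data.

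Of the values for single genes, 542 kept direction and side of the threshold, 37 lost the call, 4 gained one and 42 changed direction, none of the 42 being a called result. The cause was not tested. Over all kept cells (log2 fold change, AML against PBS), G1 cells gave -0.023 for Irgm1, 0.14 for Tgtp1 and 0.14 for Tgtp2, the replicate block 0.14 for Tgtp1, 0.073 for Tgtp2 and -0.056 for Irgm2, the own filter on 6 libraries 0.034 for Tgtp1 and 0.045 for Tgtp2, and equal class composition 0.28 for Tgtp2. In HSC, DESeq2 gave -0.061 for Gbp2 and -0.012 for Igtp. The block gave Iigp1 0.17 in MPP-3 and 0.26 in cluster 1. Against HSC in PBS, Gbp3 was at -0.0086 in MPP-3 and Irgm1 at -0.012 in MPP-4 with library size only, and Gbp3 in MPP-4 at 0.0027 with DESeq2, 0.044 with no filter and 0.017 without clusters 6, 7 and 8.

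Leaving out 1 library gave these ranges over all kept cells: Gbp9 -0.49 to 0.46, Irgm1 -0.074 to 0.28, Tgtp1 -0.30 to 0.18, Tgtp2 -0.59 to 0.13, Igtp -0.020 to 0.43, Irgm2 -0.29 to 0.33 and Iigp1 -0.14 to 0.72. In HSC they were Gbp3 -7.48 to 0.70, Gbp2 -0.63 to 0.19, Gbp9 -5.92 to 0.47, Irgm1 -0.010 to 0.46, Tgtp1 -8.07 to 0.65 and Igtp -8.75 to 0.53, where the values below -5 set a lone AML library at 0 against PBS and are no bounds. For Iigp1 they were -0.52 to 0.16 in MPP-3, -0.058 to 0.97 in cluster 0, -0.30 to 0.28 in cluster 1 and -0.28 to 1.80 in cluster 3. Against HSC, Gbp3 ran from -0.42 to 0.12 in MPP-2 and from -0.085 to 0.12 in MPP-4, and Irgm1 from -0.10 to 0.27 in MPP-4.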
